A study of Mus musculus with 12 samples.

Results

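The INK4/ARF locus on mouse chromosome 4 and the p53 and RB genes linked to it were followed through 12 RNA-seq libraries of mammary cancer tumourspheres. The 10 genes were taken from a list by name (Cdkn2a, Cdkn2b, Mtap, Cdkn2c, Trp53, Mdm2, Cdkn1a, Rb1, Cdk4 and Cdk6) out of 18278 genes in the count files, and all 10 were present and passed the filter on low counts. They were chosen by a list drawn up when the expression differences between knockout-labelled and parental libraries were already known, so those differences are described below without a test.

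LM1 and LM9 are cell lines established from lung metastases in NOD/SCID mice that carried mammary tumours of a founder line. The founder, LB-mHR1, came from a mouse tumour driven by PIK3CA H1047R under the CAG promoter, a broadly active promoter, and it had been mutagenised with piggyBac transposons, so all 4 groups share that transgene and that history. LM1 Nfib KO and LM9 Nfib KO were made from these lines with CRISPR-Cas9 against Nfib, by expanding clones from single cells, screening them by immunoblot and pooling some of them, so that each stands for a small number of clones. Each group had 3 libraries, made from spheres grown for 6 days at 10000 cells per mL in serum-free medium with EGF and bFGF at 20 ng per mL. The labels do not say whether the replicates were separate cultures, so p-values measure only the spread between these libraries, which may be technical.

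Cdkn2a encodes 2 unrelated proteins from different first exons. p16INK4a, like the products of Cdkn2b and Cdkn2c, binds CDK4 and CDK6 and keeps them from phosphorylating RB, while p19ARF binds MDM2 and so protects p53 from degradation. p53 in turn activates Cdkn1a, whose product p21 inhibits cyclin-CDK complexes, and Mdm2, which closes a negative feedback loop. The locus is among the most frequently deleted or silenced tumour suppressor loci in cancer, and deletions often take the neighbouring metabolic gene Mtap with them.

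Depth was similar in all libraries, at 29249075 to 37162594 counts, and levels are given below as counts-per-million, scaled by TMM factors (CPM). A count of 3 in a library was taken as the detection floor, which corresponded to 0.0730 to 0.121 CPM and covers counting error only. Nfib mRNA did not separate the groups in the direction of the labels. It stood at 218 ± 22.6 CPM in LM1 and 235 ± 5.67 CPM in libraries labelled LM1 Nfib KO (SD, n = 3), with adjusted p = 0.533 in limma-voom, and was higher with the label in LM9, at 154 ± 48.8 and 240.0 ± 11.2 CPM in LM9 and libraries labelled LM9 Nfib KO (adjusted p = 0.00260). Adjusted p-values are from limma-voom with Benjamini-Hochberg adjustment over the 18176 genes tested unless another test is named, and genes are said to rise or fall with the knockout label where this value is under 0.05. The listed genes beside the 10 were also chosen with results of these data known, so their p-values only set a difference against the spread between libraries and are not independent evidence. LM9 replicate 1 stood apart from its own group: its log expression correlated across genes at r = 0.998 with the LM1 libraries and at 0.972 to 0.974 with the other LM9 libraries, so the LM9 results of the 10 genes and the counts of listed genes in LM9 are also given without it. The guide was designed to make a frameshift, which need not lower the mRNA, so the Nfib level does not check the knockout labels. Whether the knockout-labelled libraries came from Nfib-edited cells of the named lines, and whether the label of LM9 replicate 1 is right, was not settled from these values, and every difference below is one between libraries so labelled. Epithelial markers also moved with the labels. All 9 luminal markers in the table were lower in both knockout-labelled groups, against 33.5% of all genes, from a summed 831 to 1694 CPM in the parental libraries to 2.26 to 2.69 CPM, and Cldn3, which encodes a tight junction protein, had no count in any knockout-labelled library. Of the other marker lists, 9 of 10 fibroblast, 4 of 8 basal and 3 of 6 endothelial genes were in the table. Of those in the table, 7 of 9 fibroblast, 2 of 4 basal and 2 of 3 endothelial genes were higher in both lines, against 39.6% of all genes. The basal marker Cnn1 was lower in both lines and the fibroblast marker Dcn was lower in LM1. The summed fibroblast markers went from 3251 to 5717 CPM in the parental libraries to 6482 to 6736 CPM, basal markers from 0.551 to 1.42 up to 6.99 to 7.80 CPM, and endothelial markers from 0.202 to 1.33 up to 350 to 359 CPM, mostly through Kdr. Of the 2 leukocyte markers in the table, Cd68 was lower and Csf1r higher, and their sum went from 450 to 554 down to 107 to 117 CPM. The part of these marker differences in the results below was not tested. In bulk libraries fewer cells of a type and less RNA per cell cannot be told apart.

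Cdkn2a (ENSMUSG00000044303) occupies bases 89274471 to 89294653 of chromosome 4 (mm10, minus strand), and Cdkn2b (ENSMUSG00000073802), which encodes p15INK4b, lies 11.6 kb away on the same strand between 89306299 and 89311039. The starts of both genes are shown because these are the transcripts that were under the detection floor on one side of the comparison. Each sequence covers the 250 bases before an annotated RefSeq start (GRCm38.p6), read 5′ to 3′ along the gene, with capitals marking a motif searched for on both strands. The INK4a start lies after chr4:89282193-89282442, the ARF start after chr4:89294620-89294869, and the Cdkn2b start after chr4:89311033-89311282, all on the minus strand. For the ARF and Cdkn2b starts, the GENCODE model begins slightly further upstream, inside the window.
Cdkn2a, INK4a start: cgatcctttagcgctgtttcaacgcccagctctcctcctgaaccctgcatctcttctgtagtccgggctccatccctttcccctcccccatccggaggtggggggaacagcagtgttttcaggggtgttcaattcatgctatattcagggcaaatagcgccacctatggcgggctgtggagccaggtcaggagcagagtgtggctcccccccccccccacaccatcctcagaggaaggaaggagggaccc
Cdkn2a, ARF start: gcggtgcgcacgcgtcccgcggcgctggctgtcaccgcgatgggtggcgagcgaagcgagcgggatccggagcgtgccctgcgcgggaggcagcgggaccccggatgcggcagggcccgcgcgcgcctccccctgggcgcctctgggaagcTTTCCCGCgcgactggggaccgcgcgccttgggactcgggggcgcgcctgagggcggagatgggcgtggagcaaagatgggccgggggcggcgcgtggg
Cdkn2b: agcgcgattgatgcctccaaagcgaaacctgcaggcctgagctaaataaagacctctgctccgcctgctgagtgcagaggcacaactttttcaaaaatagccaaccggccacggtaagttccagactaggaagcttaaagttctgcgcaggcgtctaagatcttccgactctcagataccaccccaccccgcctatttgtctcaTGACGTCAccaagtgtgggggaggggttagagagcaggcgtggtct

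The ARF window held 40 CpG dinucleotides and 78.4% G and C, against 7 CpG in the INK4a window and 12 in that of Cdkn2b. Over all 32851 promoter windows the median was 6 CpG, and 1.31% of windows held at least 40. The capitals in the ARF window mark an E2F motif, TTTCCCGC, and an E2F motif (TTTCGCGC, TTTGGCGC, TTTCCCGC or TTTGCCGC) was found in 1.86% of all windows. The capitals in the Cdkn2b window mark a cAMP response element, TGACGTCA, found in 1.55% of all windows. This element was added to the search after the sequences had been read, as was the E-box below. A match in these letters is a description of the window and not evidence of binding.

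Cdkn2a was under the floor in the parental libraries and expressed in every knockout-labelled library. Its counts were 0, 0 and 0 in LM1 and 2, 0 and 0 in LM9, against 1654, 1612 and 1652 in libraries labelled LM1 Nfib KO and 1422, 1632 and 1479 in those labelled LM9 Nfib KO. The groups were far apart, with no parental library above the floor. The level in knockout-labelled libraries was 42.5 ± 1.05 CPM for LM1 and 38.3 ± 1.42 CPM for LM9, which was at least 415-fold and at least 338-fold higher than a floor of 3 counts per library averaged over the parental group. The 2 counts in LM9 were both from replicate 1, and without it the LM9 group had none. Because reads were counted over the union of exons, p16INK4a and p19ARF transcripts could not be separated.

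Cdkn2b followed the same pattern at a lower level. It had counts of 1, 0 and 0 in LM1 and 0, 0 and 0 in LM9, against 699, 632 and 696 and then 582, 654 and 593 in libraries labelled LM1 Nfib KO and those labelled LM9 Nfib KO. The knockout-labelled levels were 17.5 ± 0.941 and 15.5 ± 0.413 CPM, at least 171-fold and at least 136-fold above the same floor. A level at or under the floor in all parental libraries and above it in all knockout-labelled ones was not peculiar to these 2 genes. Of all 18176 genes tested, 1203, or 6.62%, had at most 3 counts in every parental library and more than 3 in every knockout-labelled library.

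Mtap (ENSMUSG00000062937), which encodes the methylthioadenosine phosphorylase of methionine salvage, lies on the plus strand between 89137122 and 89181081, 93.4 kb from Cdkn2a, and was expressed in every library. Its counts were 12300, 14944 and 11768 in LM1 and 12760, 13216 and 13466 in LM9, against 9546, 9159 and 8949 and then 9246, 9856 and 9480 in the knockout-labelled libraries. In CPM the groups did not overlap, and the parental libraries were the higher ones. The level was 440 ± 16.7 CPM in LM1 and 239 ± 2.01 CPM in libraries labelled LM1 Nfib KO, a log2 difference of -0.88, and 498 ± 58.2 and 242 ± 3.83 CPM in the LM9 pair, a difference of -1.03 (-1.13 without LM9 replicate 1). Mtap therefore differed in the opposite direction to Cdkn2a and Cdkn2b, and it was well above the floor in the parental libraries, in which both were under it. Over all genes tested, the median absolute log2 difference was 1.16 in LM1 and 1.24 in LM9, and that of Mtap was smaller in both. With the label, 81.2% of all genes passed the threshold in LM1 and 82.3% in LM9. The differences of the genes below can be set against the same values.

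**Figure D1:**
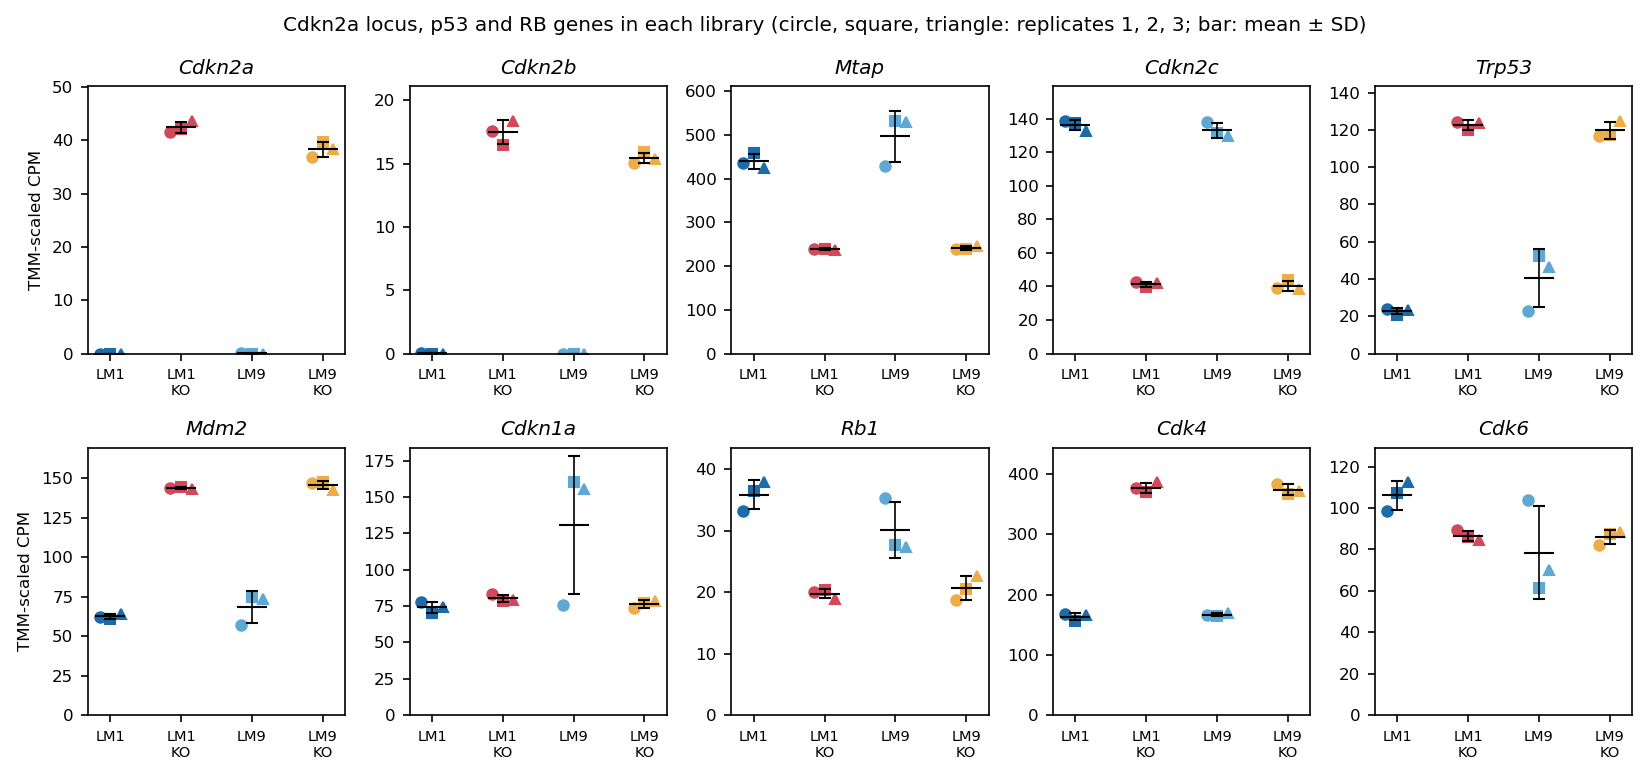
TMM-scaled CPM (vertical axes, from 0) of the 10 genes in each library, with circles, squares and triangles for replicates 1, 2 and 3 and bars for the mean ± SD of 3 libraries. Cdkn2a and Cdkn2b lie at or near 0 in the LM1 and LM9 panels and at 36.9 to 43.6 and 15.1 to 18.4 CPM in the knockout-labelled groups, and the LM9 circle sits with or next to LM1 for Trp53, Cdkn1a, Rb1, Cdk6, Mtap and Mdm2.

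The surroundings of the locus were examined in the genes within 5 Mb of Cdkn2a. The annotation places 140 genes wholly in this window, of which 32 were in the count files, 29 of them not among the 10 genes. In LM1, 18 of these 29 neighbours rose and 8 fell with the knockout label (62.1% and 27.6%), against 43.1% and 38.1% of all genes tested, or 81.2% in either direction. In LM9, 17 rose and 9 fell (58.6% and 31%), against 44.3% and 38% of all genes, or 82.3% in either direction, and without LM9 replicate 1 the counts were 18 and 10, against 47.7% and 41.2% of all genes. The median log2 fold change of the neighbours was 0.97 in LM1 and 0.57 in LM9 (0.97 without LM9 replicate 1), and that of all genes was 0.08 and 0.13. Among the 14 neighbours at a mean of at least 5 CPM, 8 rose and 4 fell in LM1, and 7 rose and 6 fell in LM9. Like Cdkn2a, 8 of the 29 neighbours had at most 3 counts in every parental library and more than 3 in every knockout-labelled one, against 6.62% of all genes tested, including 5 of the 15 protein-coding neighbours.

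Directly beside the locus the neighbours differed from each other. On the Mtap side, the noncoding gene Gm12602 rose from 1.12 ± 0.174 to 9.92 ± 0.633 CPM in LM1 and from 0.762 ± 0.219 to 10.3 ± 0.38 CPM in LM9 (adjusted p = 8.28e-09 and 5.16e-09). Next to it, Wincr1, annotated as a noncoding RNA, fell from 1.10 ± 0.172 to 0.0868 ± 0.0316 CPM and from 1.06 ± 0.428 to 0.0687 ± 0.0548 CPM (adjusted p = 1.99e-05 and 1.39e-05). AL805899.2 rose from 0.310 to 0.966 CPM and from 0.242 to 0.934 CPM (adjusted p = 0.000132 and 6.26e-05). The side of Cdkn2b held little RNA. The gene models Gm12609 and Gm12610 stayed below 0.4 CPM in all group means, with 0.0786 and 0.0668 CPM in LM1 and 0.337 and 0.381 CPM in libraries labelled LM1 Nfib KO. Dmrta1, a gene of the DMRT family of transcription factors, had no count in any parental library and stood at 0.698 ± 0.153 and 0.584 ± 0.0902 CPM in the knockout-labelled groups. Nfib itself lies 6.57 Mb from Cdkn2a, outside this window.

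**Figure D2:**
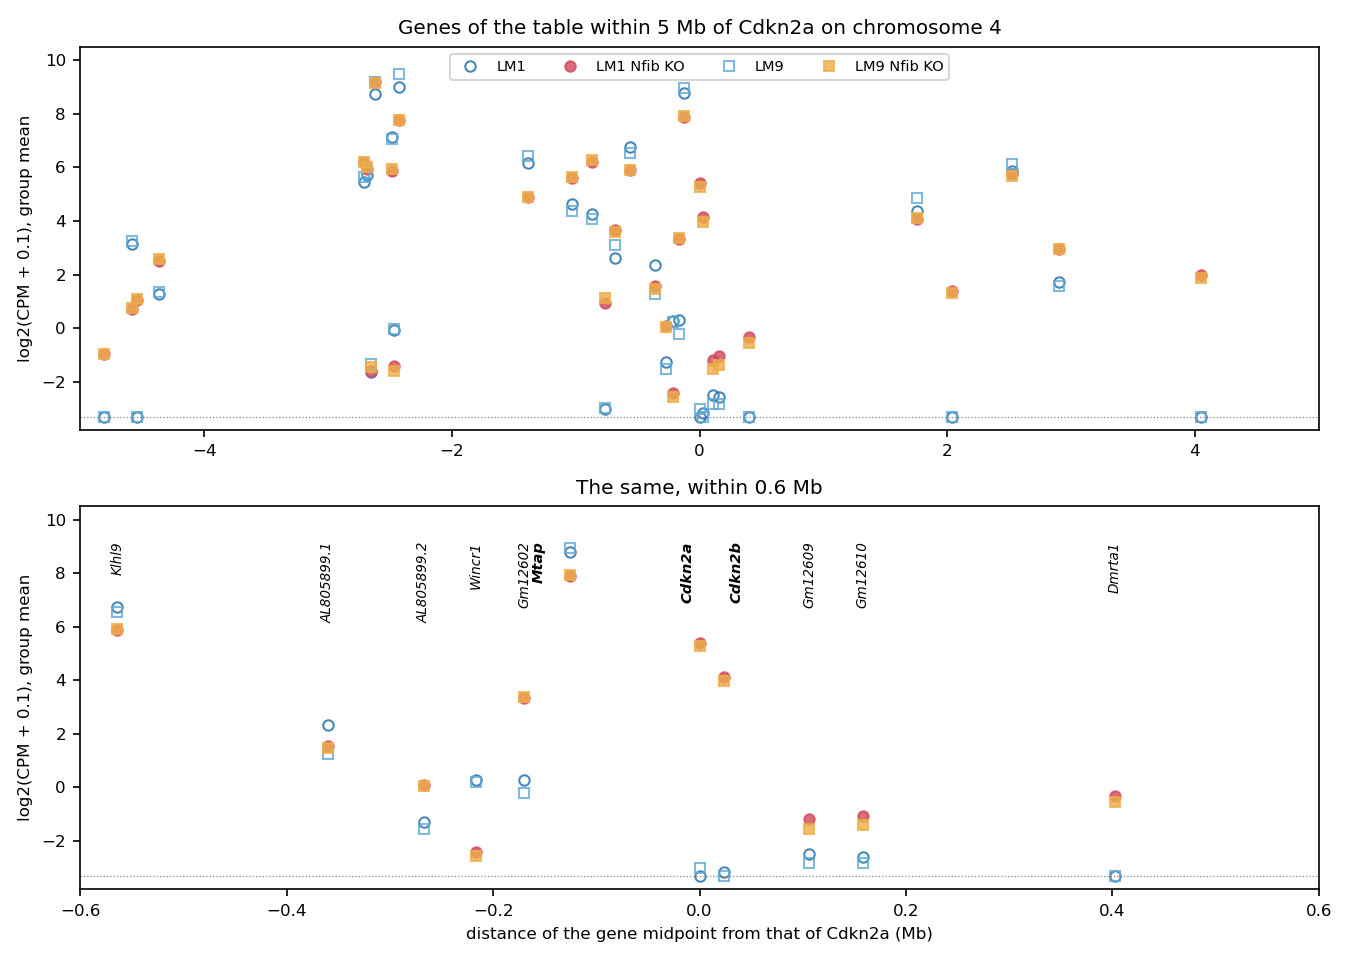
Group mean level, as log2(CPM + 0.1), of each gene of the count files against its distance in Mb from Cdkn2a on chromosome 4, over 5 Mb (top) and 0.6 Mb (bottom) to either side, with open symbols for LM1 and LM9 and filled symbols for the knockout-labelled groups; the dotted line is 0 CPM. Cdkn2a and Cdkn2b lie on or just above the dotted line in the parental groups and far above it in the knockout-labelled groups, while Mtap beside them is expressed in all 4 groups.

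Cdkn2c (ENSMUSG00000028551), which encodes p18INK4c, lies 20.3 Mb from Cdkn2b, between 109660876 and 109667189 on chromosome 4. Its counts were 3914, 4477 and 3671 in LM1 and 4094, 3270 and 3294 in LM9, against 1685, 1517 and 1596 and then 1500, 1793 and 1479 in the knockout-labelled libraries. The parental libraries were all above the knockout-labelled ones, at 136 ± 3.16 against 41.4 ± 1.54 CPM in LM1 and 133 ± 4.40 against 40.3 ± 2.87 CPM in LM9. The log2 differences were -1.72 and -1.73 (-1.69 without LM9 replicate 1). The INK4 genes therefore did not move as a family: Cdkn2a and Cdkn2b were above the floor only in knockout-labelled libraries, whereas Cdkn2c was 3.29 and 3.30 times higher in the parental groups. The fourth INK4 gene, Cdkn2d (p19INK4d), which was in the list of G1 genes, fell from 114 ± 7.12 to 11.9 ± 0.979 CPM in LM1 and from 134 ± 21 to 11 ± 0.726 CPM in LM9 (adjusted p = 7.02e-10 and 3.58e-10).

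Trp53 (ENSMUSG00000059552; chromosome 11, 69580359 to 69591873), which encodes p53, was several times higher in knockout-labelled libraries. Its counts were 676, 680 and 642 in LM1 and 682, 1296 and 1181 in LM9, against 4946, 4583 and 4689 and then 4510, 4830 and 4804 in the libraries labelled knockout. No parental library reached the lowest knockout-labelled one, and LM9 replicate 1 lay with LM1 rather than with the other LM9 libraries. The means were 22.7 ± 1.63 against 123 ± 2.58 CPM in LM1, a ratio of 5.41, and 40.6 ± 15.5 against 120.0 ± 4.42 CPM in LM9, a ratio of 2.95 (2.43 without LM9 replicate 1).

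Mdm2 (ENSMUSG00000020184; chromosome 10, 117688875 to 117710758), whose product marks p53 for degradation, differed in the same direction. Counts were 1754, 1992 and 1775 in LM1 and 1693, 1857 and 1868 in LM9, against 5718, 5524 and 5431 and then 5679, 6060 and 5483. The groups were separate, at 62.5 ± 1.57 against 144 ± 0.429 CPM in LM1 and 68.5 ± 9.88 against 146 ± 2.79 CPM in LM9, with log2 differences of 1.20 and 1.10 (0.98 without LM9 replicate 1).

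Cdkn1a (ENSMUSG00000023067; chromosome 17, 29090976 to 29100727) did not share this pattern. Its counts were 2197, 2292 and 2048 in LM1 and 3297, 2997 and 3006 in libraries labelled LM1 Nfib KO, and 2243, 3970 and 3957 in LM9 against 2839, 3153 and 3024 in libraries labelled LM9 Nfib KO. In LM1 the levels were 74.1 ± 3.81 and 80.2 ± 2.45 CPM, with the knockout-labelled libraries just above the others and a log2 difference of 0.12 that is close to the 0.08 of the median gene. In LM9 the groups overlapped, at 130.0 ± 47.5 against 76.3 ± 2.52 CPM, because replicate 1 stood at 75.7 CPM and the other LM9 libraries at 156 and 160.0 CPM. Without replicate 1 the log2 difference in LM9 was -1.05, so that Cdkn1a was not higher in knockout-labelled libraries of that line while Trp53 was. The start of the longer Cdkn1a transcript is shown because a p53 core motif, CATGNNNNNNCATG, lies in it (chr17:29090729-29090978, plus strand, capitals), a motif found in 0.49% of all windows and in none of the other windows of these genes, which covered 9 of the 10 and not Rb1.
Cdkn1a, upstream start: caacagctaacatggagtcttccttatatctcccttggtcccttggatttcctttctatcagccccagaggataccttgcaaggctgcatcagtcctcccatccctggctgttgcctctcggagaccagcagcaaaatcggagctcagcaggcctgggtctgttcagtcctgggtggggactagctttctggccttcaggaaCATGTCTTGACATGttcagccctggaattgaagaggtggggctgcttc

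Other genes that p53 is known to activate moved in both directions. Of 36 such genes, all tested, 13 rose and 19 fell in LM1 and 15 rose and 19 fell in LM9, or 36.1% and 52.8% and then 41.7% and 52.8%, against 43.1% and 38.1% and then 44.3% and 38% of all genes. Without LM9 replicate 1, 16 rose and 20 fell in LM9, against 47.7% and 41.2% of all genes. The 13 that rose in LM1 also rose in LM9, and 18 fell in both lines, against 39.6% and 33.5% of all genes. The median log2 fold change was -0.24 in LM1 and -0.51 in LM9 (-0.61 without LM9 replicate 1). With total counts in place of TMM, 13 rose and 17 fell in LM1, against 48% and 32.9% of all genes. In LM9, 15 rose and 15 fell under that scaling, against 52.3% and 30.2%. The largest rises were in Pmaip1, which encodes the BH3-only protein NOXA, and Eda2r, which encodes a receptor of the TNF receptor family. Pmaip1 had at most 0.0102 CPM on average in the parental groups and 16.6 ± 0.385 and 16.7 ± 0.227 CPM in the knockout-labelled groups, at least 163-fold and at least 147-fold above the floor. Eda2r stood at 3.98 ± 0.220 and 4.02 ± 0.158 CPM in the knockout-labelled groups, at least 38.9-fold and at least 35.5-fold above it. The largest falls were in Psrc1, which encodes a spindle protein, and Trp53inp1, a stress-response gene that promotes p53 activity. Psrc1 fell from 35.4 ± 1.66 to 0.388 ± 0.0646 CPM in LM1 and from 29.5 ± 4.56 to 0.449 ± 0.109 CPM in LM9 (adjusted p = 7.02e-10 and 9.82e-10). Trp53inp1 fell from 69.6 ± 7.33 to 3.47 ± 0.675 CPM and from 45.7 ± 14.2 to 3.62 ± 0.404 CPM (adjusted p = 2.20e-08 and 1.03e-07).

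Of 17 regulators and relatives of p53, 16 were in the table. In LM1, 6 rose and 9 fell, and in LM9, 7 rose and 8 fell (37.5% and 56.2%, then 43.8% and 50%, against 43.1% and 38.1% of all genes in LM1 and 44.3% and 38% in LM9), with medians of -0.68 and -0.65 on the log2 scale. The LM9 counts were again 7 and 8 without LM9 replicate 1, against 47.7% and 41.2% of all genes, but the median was -0.02. Mdm4, the MDM2 relative that inhibits p53, fell while Mdm2 was higher: it went from 116 ± 8.88 to 21.2 ± 0.593 CPM in LM1 and from 98.1 ± 15.1 to 23.4 ± 0.169 CPM in LM9 (adjusted p = 1.38e-09 and 5.73e-09). Hipk2, a kinase that phosphorylates p53, fell from 67.9 ± 8.58 to 10.1 ± 0.674 CPM and from 75.3 ± 9.79 to 10.7 ± 0.0974 CPM (adjusted p = 2.40e-09 and 1.78e-09). Atr, the kinase of the replication stress checkpoint, rose from 11.3 ± 1.13 to 30.3 ± 2.01 CPM and from 9.43 ± 0.717 to 32.2 ± 1.22 CPM (adjusted p = 4.46e-08 and 1.12e-08). Rchy1, another ubiquitin ligase for p53, rose from 28.4 to 59.6 CPM and from 37.4 to 60.4 CPM (adjusted p = 8.15e-06 and 0.000176).

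Among the RB-side genes, Cdk4 (ENSMUSG00000006728; chromosome 10, 127063534 to 127067920), the kinase that p16INK4a binds, was the highest of the 10 genes per length in knockout-labelled libraries. Its counts were 4713, 5089 and 4599 in LM1 and 4897, 4093 and 4311 in LM9, against 14966, 14151 and 14615 and then 14788, 15057 and 14313. The groups were well separated, at 163 ± 6.17 against 378 ± 8.21 CPM in LM1 and 167 ± 2.67 against 374 ± 8.73 CPM in LM9, with log2 differences of 1.21 and 1.17 (1.16 without LM9 replicate 1). Cdk4 shares 641 exon bases with Tspan31 on the opposite strand, a gene with 3952 to 6095 counts per library, and whether reads were counted by strand is not stated in the sources used here. The Cdk4 start (chr10:127063285-127063534, plus strand) is shown because it holds 4 copies of the E-box CACGTG, in capitals. At least 1 copy was found in 6.02% of all windows and at least 4 in 0.0213%, or 7 windows.
Cdk4: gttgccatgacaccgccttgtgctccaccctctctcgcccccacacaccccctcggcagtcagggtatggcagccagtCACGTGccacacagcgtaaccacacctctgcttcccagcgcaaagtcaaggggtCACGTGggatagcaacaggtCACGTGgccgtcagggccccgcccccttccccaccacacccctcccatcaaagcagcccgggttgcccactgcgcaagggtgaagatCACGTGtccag

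Cdk6 (ENSMUSG00000040274; chromosome 5, 3341485 to 3531008), the partner kinase, differed little. Counts were 2781, 3499 and 3109 in LM1 and 3548, 3282 and 3200 in libraries labelled LM1 Nfib KO, and 3074, 1520 and 1784 in LM9 against 3161, 3589 and 3400 in libraries labelled LM9 Nfib KO. In CPM the LM1 libraries lay above the knockout-labelled ones, at 106 ± 6.97 against 86.5 ± 2.48, and the LM9 libraries spanned both sides, at 78.4 ± 22.4 against 85.9 ± 3.43. The log2 differences were -0.29 and 0.16, and in LM9 0.39 without replicate 1 and 0.0061 without replicate 2. Rb1 (ENSMUSG00000022105; chromosome 14, 73183673 to 73325822) encodes RB, the substrate of both kinases. Its counts were 939, 1192 and 1048 in LM1 and 1048, 685 and 694 in LM9, against 793, 782 and 717 and then 721, 844 and 870. In CPM all parental libraries were above all knockout-labelled ones, at 35.9 ± 2.36 against 19.8 ± 0.762 in LM1 and 30.1 ± 4.56 against 20.6 ± 1.96 in LM9, and the log2 differences were -0.86 and -0.55 (-0.41 without LM9 replicate 1). Rb1 shares 488 exon bases with Rcbtb2 and 408 with Lpar6, both on the opposite strand.

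The order of the 10 genes by level was compared per length, as CPM per kb of exon union. In LM1 it ran from Mtap at 136 ± 5.17 through Cdkn2c at 50.7 ± 1.17 and Cdk4 at 50.2 ± 1.90, whose libraries overlapped, to Cdkn1a at 20.8 ± 1.07 and Mdm2 at 12.3 ± 0.308. Cdk6 followed at 7.58 ± 0.498, then Rb1 at 5.97 ± 0.393 and Trp53 at 5.60 ± 0.402, which also overlapped, with Cdkn2b and Cdkn2a at the floor. In libraries labelled LM1 Nfib KO the order became Cdk4 at 116 ± 2.53, Mtap at 74.0 ± 0.624, Cdkn2a at 36.2 ± 0.894, Trp53 at 30.3 ± 0.638 and Mdm2 at 28.3 ± 0.0844. Below these stood Cdkn1a at 22.6 ± 0.689, Cdkn2c at 15.4 ± 0.572, Cdkn2b at 12.6 ± 0.677, Cdk6 at 6.19 ± 0.177 and Rb1 at 3.29 ± 0.127. No neighbours in this second order overlapped. The libraries labelled LM9 Nfib KO gave the same order, in which Trp53 at 29.6 ± 1.09 and Mdm2 at 28.7 ± 0.549 overlapped. In LM9 the order resembled that of LM1, with Cdk4 and Cdkn2c, which overlapped, exchanged and Trp53 placed between Mdm2 and Cdk6, but neighbours from Mdm2 down to Rb1 overlapped. In knockout-labelled libraries Cdkn2a, as the sum of its transcripts, thus stood above Cdkn2b.

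**Figure D3:**
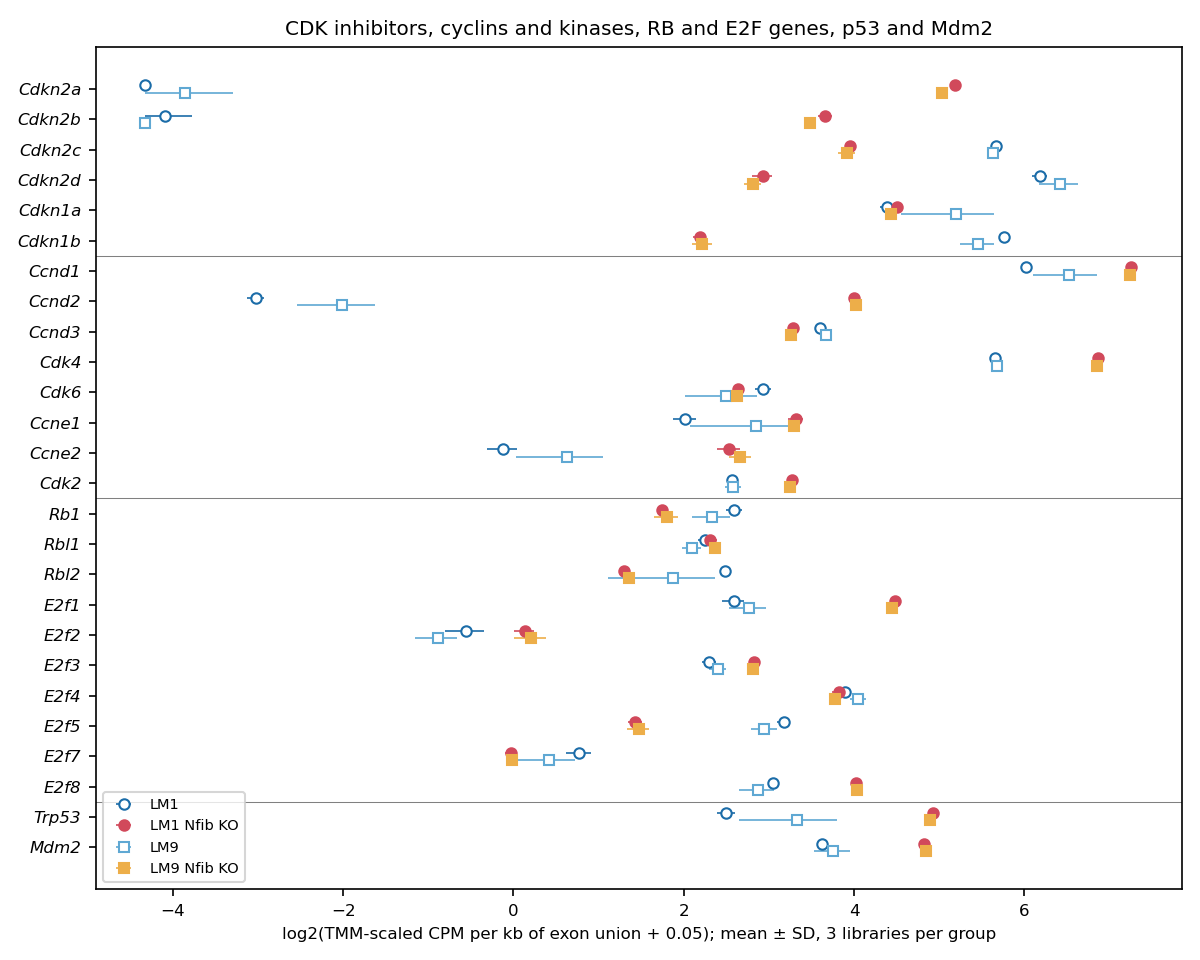
Group mean ± SD over 3 libraries of CPM per kb of exon union, plotted as log2(value + 0.05), for CDK inhibitors, G1 cyclins and kinases, RB and E2F genes, Trp53 and Mdm2, with open symbols for LM1 and LM9 and filled symbols for the knockout-labelled groups. The filled circle and square nearly coincide in every row, and Cdkn2a, Cdkn2b and Ccnd2 lie far to the left in the parental groups, whereas Cdkn2c, Cdkn2d and Cdkn1b lie to the right there.

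Cyclins and other CDK inhibitors that act with these kinases were counted next. Of 13 listed, 12 were in the table, and 7 rose and 4 fell in each line (58.3% and 33.3%, against 43.1% and 38.1% of all genes in LM1 and 44.3% and 38% in LM9), with medians of 0.50 and 0.49 on the log2 scale. With total counts in place of TMM, which raised the median of all genes by 0.22 in LM1 and 0.35 in LM9 on the log2 scale, 7 rose and 3 fell in LM1 and 8 rose and 3 fell in LM9. Of all genes, 48% then rose and 32.9% fell in LM1 and 52.3% rose and 30.2% fell in LM9. The LM9 counts were again 7 and 4 without LM9 replicate 1, against 47.7% and 41.2% of all genes, with a median of 0.29. Among the D cyclins, which activate CDK4 and CDK6, Ccnd2 rose from 0.685 ± 0.0818 to 149 ± 3.30 CPM in LM1 and from 1.86 ± 0.718 to 153 ± 4.99 CPM in LM9 (adjusted p = 1.78e-10 and 1.23e-10). Ccnd1, the highest D cyclin per length in the parental groups, rose from 306 ± 4.20 to 716 ± 1.80 CPM and from 434 ± 111 to 712 ± 14.3 CPM (adjusted p = 1.06e-05 and 0.000558). Ccnd3 fell by 0.33 and 0.41 on the log2 scale, but with total counts its values were -0.10 and -0.06 and passed in neither line (adjusted p = 0.141 and 0.381). The E cyclins drive S phase entry with CDK2. Ccne2 rose from 3.03 ± 0.388 to 20.1 ± 1.88 CPM and from 5.22 ± 1.83 to 22.0 ± 2.03 CPM (adjusted p = 4.63e-07 and 1.39e-06). Ccne1 rose from 10.6 to 26.4 CPM in LM1 (adjusted p = 0.000800). In LM9 it stood at 19.0 and 26.1 CPM (adjusted p = 0.0479), just past the threshold, and it passed in 4 of 20 alternatives, with adjusted p from 0.00202 to 0.149. Cdk2 rose from 36.4 to 59.5 and from 36.9 to 58.8 CPM.

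Cdkn1b, which encodes the CDK2 inhibitor p27, fell from 246 ± 7.68 to 20.5 ± 1.07 CPM in LM1 and from 199 ± 27.0 to 20.9 ± 1.76 CPM in LM9 (adjusted p = 5.58e-11 and 1.20e-10). Its ubiquitin ligase subunit Skp2 rose by 0.30 and 0.40 on the log2 scale. Fbxw7, the substrate receptor for cyclin E, rose from 14.5 to 24.8 CPM and from 7.74 to 26.1 CPM, although in LM1 it missed the threshold in edgeR's test (adjusted p = 0.0514). Ccna2, the cyclin of S phase and G2, fell from 172 ± 7.75 to 72.7 ± 2.84 CPM and from 131 ± 31.4 to 73.1 ± 3.91 CPM (adjusted p = 3.04e-06 and 0.000111). Cdc25a, the phosphatase that activates CDK2, passed the test in neither line, with log2 fold changes of -0.05 and 0.12. With total counts these values were 0.17 and 0.48, and the LM9 value passed (adjusted p = 0.000390), as it did without LM9 replicate 1.

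Pocket proteins and E2F factors went in both directions, as all genes did. Of 12 genes, 5 rose and 4 fell in LM1 and 7 rose and 4 fell in LM9, or 41.7% and 33.3% and then 58.3% and 33.3%, against 43.1% and 38.1% of all genes in LM1 and 44.3% and 38% in LM9. The counts changed with the fit. In LM9 they were 7 and 3 without LM9 replicate 1, against 47.7% and 41.2% of all genes. With total counts in place of TMM they were 7 and 2 in LM9, against 52.3% and 30.2% of all genes. In LM1 they were then 7 and 4, against 48% and 32.9%. E2f1, an activator of S phase genes, rose from 18.8 ± 1.66 to 70.2 ± 0.852 CPM in LM1 and from 21.2 ± 3.17 to 68.3 ± 2.29 CPM in LM9 (adjusted p = 6.58e-09 and 1.72e-08). E2f2 and E2f3, the other activators, rose by smaller log2 fold changes of 0.74 and 0.53 in LM1 and 1.17 and 0.43 in LM9. Of the repressors, E2f8 rose from 44.9 to 88.3 CPM and from 39.4 to 88.8 CPM, whereas E2f7 fell from 14.9 to 8.37 CPM and from 11.5 to 8.42 CPM. The LM9 value of E2f7 missed the threshold in 4 of 20 alternatives, LM9 without replicate 1 among them, and was -0.08 on the log2 scale with total counts (adjusted p = 0.713). E2f5 fell from 16 to 4.72 CPM and from 13.7 to 4.84 CPM. The dimerisation partners went opposite ways: Tfdp1 rose from 40.2 to 75.0 and from 30.2 to 77.7 CPM, and Tfdp2 fell from 56.1 to 16.6 and from 47.0 to 16.7 CPM. Of the pocket proteins beside Rb1, Rbl2 (p130) fell from 42.0 ± 1.39 to 18.3 ± 0.348 CPM in LM1 (adjusted p = 0.000125) and stood at 27.3 ± 11.3 and 19.0 ± 0.184 CPM in the LM9 pair (adjusted p = 0.0542, and from 0.0130 to 0.731 over 20 alternatives, of which 5 passed). Rbl1 (p107) had log2 fold changes of 0.06 in LM1 (adjusted p = 0.491, and 0.0229 with total counts) and 0.28 in LM9 (adjusted p = 0.00584). E2f4 and E2f6 had log2 fold changes of -0.07 and 0.23 in LM1, neither past the threshold, and of -0.26 and 0.55 in LM9, both past it, but with total counts in place of TMM the values of E2f4 were 0.16 and 0.09. E2f6 in LM1 passed in 7 of 20 alternatives, among them DESeq2 and total counts, with adjusted p from 0.000105 to 0.134.

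Genes of S phase that E2F is known to activate mostly rose. Of 28, all tested, 23 rose in each line (82.1%, against 43.1% and 44.3% of all genes), the same 23 genes in both, against 39.6% of all genes that rose in both, and 2 fell in LM1 and 3 in LM9. Without LM9 replicate 1, 23 rose and 4 fell in LM9, against 47.7% and 41.2% of all genes. In LM1, 19 of them rose by more than 1 on the log2 scale and in LM9 15 did, or 67.9% and 53.6%, against 29.8% and 31.3% of all genes. The median log2 fold change was 1.53 in LM1 and 1.08 in LM9. Fen1, the flap endonuclease of Okazaki fragment processing, rose from 8.90 ± 0.994 to 109 ± 3.05 CPM and from 7.37 ± 1.13 to 107 ± 0.752 CPM (adjusted p = 4.13e-11 and 4.40e-11). Tyms, thymidylate synthase, rose from 4.80 ± 0.556 to 50.5 ± 1.03 CPM and from 6.79 ± 1.73 to 52.8 ± 1.20 CPM (adjusted p = 1.83e-09 and 3.11e-09). Lig1, which seals the fragments, fell from 51.0 ± 1.72 to 16.7 ± 0.646 CPM and from 70.3 ± 15.6 to 17.0 ± 0.537 CPM, and Dut, the dUTPase, from 76.1 ± 0.226 to 41.9 ± 0.566 CPM and from 92.3 ± 11.6 to 43.4 ± 0.136 CPM. Over the whole list the summed level went from 1028 to 1413 CPM in the parental libraries to 2565 to 2614 CPM. Most of these genes thus rose in the libraries in which Cdkn2a and Cdkn2b were expressed.

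**Figure D4:**
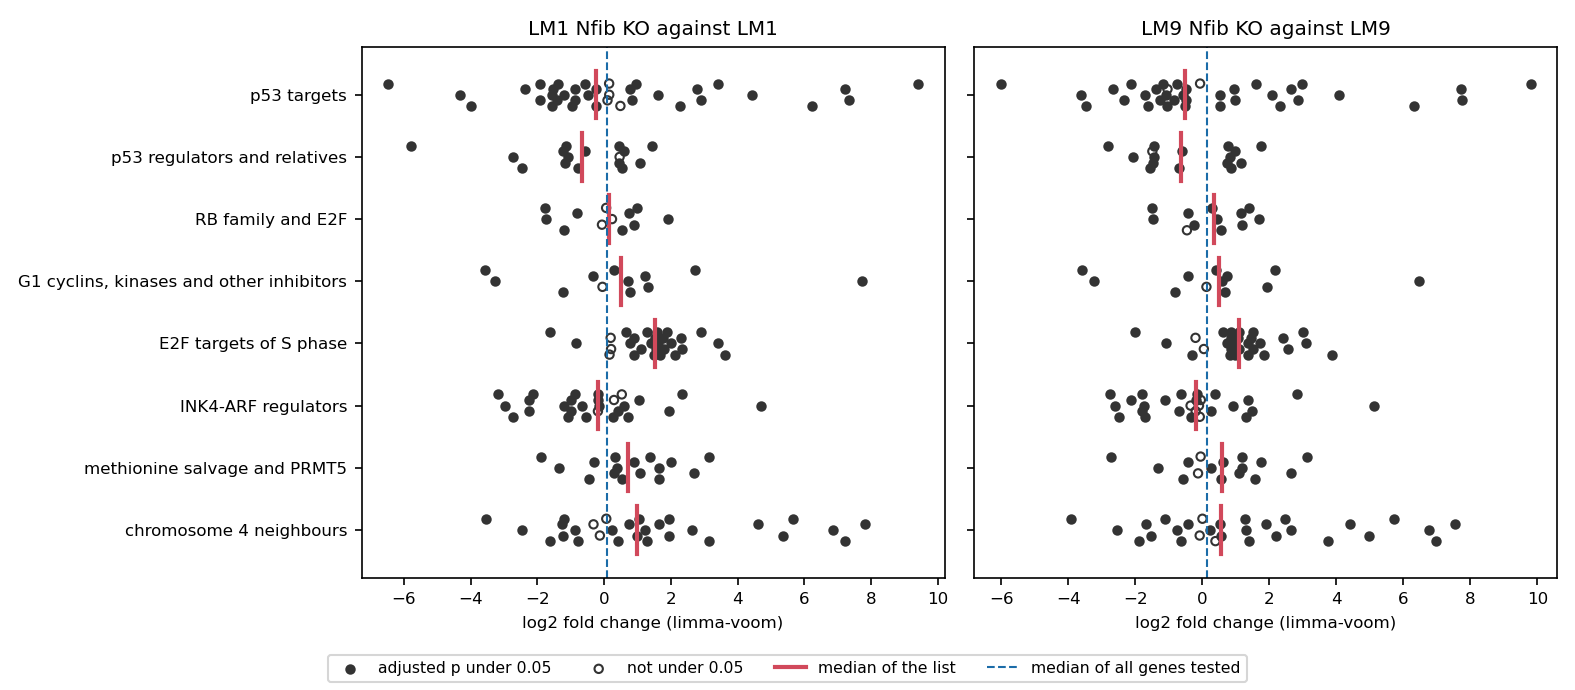
Log2 fold change of the knockout-labelled against the parental libraries (horizontal axes) for each tested gene of 8 lists, for LM1 (left) and LM9 (right), with filled points for adjusted p under 0.05 in limma-voom, red bars for list medians and the dashed line for the median of all genes. The E2F targets of S phase lie mostly to the right of the dashed line, with medians of 1.53 and 1.08, and the p53 targets spread to both sides; the fold changes of genes without parental counts depend on the offset of the fit.

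Factors known to repress or activate the INK4/ARF locus were then counted. Of 27, 8 rose and 16 fell in LM1 and 8 rose and 14 fell in LM9 (29.6% and 59.3%, and 29.6% and 51.9%, against 43.1% and 38.1% of all genes in LM1 and 44.3% and 38% in LM9), with medians of -0.20 in both. With total counts, 10 rose and 13 fell in LM1, against 48% and 32.9% of all genes, and 10 rose and 8 fell in LM9, against 52.3% and 30.2%. Without LM9 replicate 1, 9 rose and 14 fell in LM9, against 47.7% and 41.2% of all genes. Cbx7, a Polycomb subunit that represses the locus, fell from 58.2 ± 3.38 to 6.43 ± 0.690 CPM in LM1 and from 41.9 ± 14.9 to 6.01 ± 0.350 CPM in LM9 (adjusted p = 1.06e-07 and 4.84e-07). Kdm6b, the H3K27 demethylase that counteracts Polycomb, also fell, from 172 ± 17.5 to 25.7 ± 1.05 CPM and from 138 ± 31.7 to 24.0 ± 0.588 CPM (adjusted p = 7.18e-09 and 1.78e-08). Smarcb1, a subunit of the SWI/SNF remodeller that opposes Polycomb there, rose from 25.0 ± 1.45 to 125 ± 3.17 CPM and from 17.9 ± 6.63 to 122 ± 3.84 CPM (adjusted p = 5.50e-08 and 1.98e-08). Twist1, a transcription factor known to repress the locus, rose from 28.1 ± 0.822 to 107 ± 1.86 CPM and from 44.1 ± 13.9 to 104 ± 7.07 CPM (adjusted p = 1.63e-06 and 3.43e-05). Known repressors and known activators thus appeared among both the rises and the falls.

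MTAP clears methylthioadenosine, a by-product of polyamine synthesis that inhibits the arginine methyltransferase PRMT5. Of 16 genes of methionine salvage, polyamine synthesis and the PRMT5 complex, 12 rose and 4 fell in LM1 and 10 rose and 4 fell in LM9 (75% and 25%, and 62.5% and 25%, against 43.1% and 38.1% of all genes in LM1 and 44.3% and 38% in LM9), with medians of 0.72 and 0.59. With total counts, 12 rose and 2 fell in LM1 and 11 rose and 2 fell in LM9, against 48% and 32.9% and then 52.3% and 30.2% of all genes. In LM9 without replicate 1, 10 rose and 6 fell, against 47.7% and 41.2% of all genes. Srm, spermidine synthase, rose from 15.6 ± 1.28 to 137 ± 1.87 CPM and from 22.3 ± 6.30 to 133 ± 1.75 CPM (adjusted p = 5.75e-09 and 1.89e-08). Wdr77, the PRMT5 partner MEP50, rose from 12 ± 0.565 to 77.2 ± 1.08 CPM and from 8.88 ± 2.84 to 75.4 ± 0.726 CPM (adjusted p = 5.02e-09 and 3.23e-09). Mat2b, the regulatory subunit of methionine adenosyltransferase, fell from 64.1 to 25.0 CPM and from 63.7 to 25.7 CPM (adjusted p = 2.19e-09 and 3.02e-09), and Il4i1, an amino acid oxidase, from 1.96 to 0.529 CPM and from 3.09 to 0.450 CPM.

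The parental lines were then compared with each other. The 10 genes were chosen with results of these libraries known, so the p-values here set differences against the spread between libraries and are not independent evidence. With all libraries, none of the 10 genes passed the threshold in limma-voom, against 0.0055% of all genes, and 5 of 10 had an unadjusted p under 0.05, against 47.7% of all genes. edgeR's quasi-likelihood test also called 0 of 10, against 0.0055% of all genes, and DESeq2 called 3 of 10, against 31.8% of all genes. The result turned on LM9 replicate 1. Without it, 6 of 10 genes differed between LM1 and LM9, against 65.7% of all genes, so the share among the 10 genes was close to the background. LM9 then had 2 libraries. Leaving out a library because it resembles LM1 by itself widens the gap between the groups, so the p-values that follow only describe this fit. Trp53 was lower in LM1, by 1.13 ± 0.0689 on the log2 scale (SE; adjusted p = 3.02e-10 in limma), at 20.8 to 24.0 CPM in the LM1 libraries and 46.5 to 52.2 CPM in LM9 replicates 2 and 3. Cdkn1a was lower in LM1 by 1.09 ± 0.0461 (adjusted p = 3.39e-12), Mtap by 0.27 (adjusted p = 1.12e-06) and Mdm2 by 0.25 (adjusted p = 4.23e-05). Cdk6 and Rb1 were higher in LM1, by 0.69 ± 0.0632 (adjusted p = 4.57e-08) and 0.39 ± 0.0753 (adjusted p = 0.000244). Cdkn2c and Cdk4 did not pass the threshold, with log2 differences of 0.06 and -0.04, and Cdkn2a and Cdkn2b were at or under the floor in both lines.

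The knockout-labelled groups of the 2 lines were close to each other. None of the 10 genes passed the threshold between the LM1 Nfib KO and LM9 Nfib KO libraries in limma-voom, edgeR or DESeq2, and 0 of 18176 genes did in limma-voom (0%). At an unadjusted p under 0.05, 0 of 10 genes passed in limma-voom and edgeR and 1 of 10 in DESeq2, against 0.979%, 0.737% and 0.506% of all genes. The largest differences among the 10 were in Cdkn2a and Cdkn2b, which were 1.11 and 1.13 times higher in the LM1 pool, by 0.15 ± 0.0865 and 0.18 ± 0.0914 on the log2 scale (SE). Without LM9 replicate 1 in the limma-voom fit, their unadjusted p-values were 0.00175 and 0.00768 and their adjusted p-values 0.999. In that fit 2 of 10 genes had an unadjusted p under 0.05, against 3.6% of all genes. Across genes, any pair of knockout-labelled libraries correlated at r = 0.9982 or above in log expression, within a line or between lines, and a parental with a knockout-labelled library at 0.778 to 0.795.

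The differences with the label were not tested between the lines, since they are made of the differences that were known when the genes were chosen. Set side by side as signed log2 values, with LM9 taken without replicate 1, Trp53 was at 2.44 in LM1 and 1.28 in LM9, Mdm2 at 1.20 and 0.98, and Cdk4 at 1.21 and 1.16. Cdkn1a was at 0.12 and -1.05, Cdk6 at -0.29 and 0.39, Rb1 at -0.86 and -0.41, Mtap at -0.88 and -1.13, and Cdkn2c at -1.72 and -1.69. Since the knockout-labelled groups of both lines gave nearly equal levels, the gaps between these pairs are those between the parental lines above.

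The genes whose pattern over the 12 libraries was most like that of Cdkn2a were found by the root mean square difference of log2 CPM, each centred on its own mean. They were Gm41386 and Samd5, at 0.34 each, Nrcam at 0.45, Nr1h4 at 0.46 and Gng4 at 0.50. A prior count enters these log2 values, so for genes with almost no parental counts the order rests on a few reads. As given above, 6.62% of all genes tested were at the floor in parental libraries only. Like Cdkn2a, Samd5, which encodes a SAM domain protein, had no count in LM1 and at most 2 in an LM9 library, against 25.2 ± 1.25 CPM in libraries labelled LM1 Nfib KO. Nrcam encodes a neuronal cell adhesion molecule, Nr1h4 the bile acid receptor FXR and Gng4 a G protein subunit. Their levels in libraries labelled LM1 Nfib KO were 369 ± 3.69, 20.8 ± 1.07 and 69.7 ± 2.25 CPM, against at most 7, 0 and 1 counts in an LM1 library. In an LM9 library they had at most 14, 1 and 2 counts. Nrcam had at least 6 counts in every LM1 library, so unlike Cdkn2a it was not under the floor there.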

How the data were processed

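RNA was measured by stranded poly(A) RNA-seq in 12 tumoursphere libraries, 3 in each of 4 groups named by the labels. Per the study's methods, the authors aligned single-end reads to mm10 with STAR and counted 5' ends over the union of each gene's exons with QuasR; versions and the strand setting are not given in the sources used here. The deposited values are raw counts. No listed gene had fewer than 8 counts in its third-highest library, so rare transcripts were not in the table. Of 18278 Ensembl identifiers, 18268 matched GENCODE M21, whose assembly is that of mm10.

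From these counts, genes passing filterByExpr in edgeR 4.0.16 (minimum count 10, 18176 genes) were scaled by TMM and fitted with limma-voom (limma 3.58.1, R 4.3.3), with all 12 libraries, 1 mean per group, two-sided tests and Benjamini-Hochberg adjustment over all genes at 0.05. CPM were TMM-scaled. Alternatives were edgeR's quasi-likelihood test, DESeq2 1.42.0, other scalings and filters, a replicate block and leaving out each library. The code was tested on simulated data.

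The 10 genes and all lists were chosen with earlier results of these data known. For the same reason a planned interaction test of the 10 genes between the lines was left out. Named genes were the 10 genes, all listed G1 and RB/E2F genes, the 2 largest rises and falls of each other list (by mean log2 fold change over both lines, called with the same sign in both, at a mean of at least 1 CPM), the 3 nearest neighbours on each side of Cdkn2a, Nfib, and the 5 genes most like Cdkn2a. Promoter windows were from RefSeq and 9 of the 10 genes matched. Replicate numbers did not pair the libraries (correlations of same-numbered deviations from -0.059 to 0.025).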

Additional observations from a re-analysis of the deposited data

How the results depend on the processing

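Of the counts of calls under the alternatives, 354 stayed within 1.5 times the reported count and 6 moved. Between LM1 and LM9, the 0 of 10 genes called became 3 with DESeq2 and 3 with total counts in place of TMM. The shares of all genes called were then 31.8% and 28.8%. With a minimum mean of 5 CPM 3 genes were called, and no share of all genes was taken. When libraries were left out in turn, 0 to 6 were called, with 6 only without LM9 replicate 1, against 65.7% of all genes. A mean of at least 5 CPM left 14 chromosome 4 neighbours, of which 12 were called in LM1 and 13 in LM9, because fewer genes were tested. Of these neighbours, 8 rose and 4 fell in LM1, and 7 rose and 6 fell in LM9. No share of all genes was taken under this filter. With only the groups compared, 18 of 28 neighbours rose and 10 fell in LM1, and 12 of 26 rose and 9 fell in LM9. In the fit with a replicate block, the counts among the 10 genes stayed at 0 in both tests, and no count of calls moved by over 1.5 times.

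The log2 differences of the 10 genes kept their sign under the alternatives run for them, although Cdk6 in LM9 was close to 0 at 0.0061 without LM9 replicate 2. Total counts raised the median of all genes by 0.22 in LM1 and 0.35 in LM9, and moved Cdk6 to -0.07 and 0.52, Cdkn1a to 0.34 and -0.34, and Rb1 to -0.64 and -0.19. The fitted log2 differences of Cdkn2a ranged from 11.22 to 13.48 in LM1 and from 9.86 to 10.91 in LM9. Those of Cdkn2b ranged from 9.15 to 10.19 and from 9.61 to 12.02. Parental counts of these genes were 0 to 2 per library, so in limma-voom the values depend on the offset of 0.5 counts. The cause of the spread between fits was not tested. Depth limits what can be said of Cdkn2a and Cdkn2b in the parental lines to their being under 3 counts per library.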
